A study of Mus musculus with 2 samples.

Results

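Nr4a1, Nr4a2 and Nr4a3 are the NR4A orphan nuclear receptors, and they are 3 of the 28233 genes with a symbol on the arrays. All probes that carry one of these symbols were taken, control probes left out, which gave 4 probes read by 13 spots on each array. One probe reads Nr4a1, a pair of probes reads Nr4a2, and one probe, printed as 10 spots, reads Nr4a3. The accession of 4 of the 4 probes gave the same symbol in the reference annotation.

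RNA came from immortalized mouse embryonic fibroblasts (MEF) of the background C57BL/6 x B6:129 Ola that carry Rosa26ERT2 Cre: THOC5 (flox/flox). In these cells tamoxifen activates a Cre recombinase expressed from the Rosa26 locus, and Cre removes the floxed THOC5 gene, which encodes a member of the mRNA-binding THO complex. By their titles, both conditions carry the floxed gene and the Cre. The genotype label reads wildtype for the control cells, at odds with that title, and THOC5 knockdown for the depleted cells. The control cells got no tamoxifen, so that the agent itself and the loss of THOC5 cannot be told apart. For the depleted cells the labels give 2 days of tamoxifen, and the methods give 10 μM for 24 h, then 24 h in growth medium. All cells were then starved of serum for 24 h and either left unstimulated or given 20% serum (FCS) for 1 h. Each condition was a single dual-color array, with Cy3 on the RNA of unstimulated cells and Cy5 on that of stimulated cells. Without replicate arrays or a dye swap no test between conditions was made, and the dye and the stimulus cannot be told apart. The serum ratio is the Cy5 over the Cy3 processed signal of an array, and the fold reduction is the serum ratio in control cells over that in THOC5-depleted cells. Where a pair of ratios is given, control cells come first. A processed signal is an intensity in arbitrary units after background subtraction and dye normalization within the array.

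After scaling between arrays, Thoc5 was 7.08-fold lower in THOC5-depleted than in control cells without serum and 5.38-fold lower with serum. Gapdh had serum ratios of 0.932 and 0.917. All 8 fibroblast markers were well above background in 4 of 4 channels, and one of them, Pdgfra, had a serum ratio below 0.5 (0.479) in control cells. Of 10 markers of other cell types, Cdh1, Actn2 and Alb were above background in no channel. Krt8, Pecam1, Cdh5 and Tubb3 were above it in all 4, and Epcam, Ptprc and Cd68 in only some. The unscaled signals of Epcam were higher on the control array, and those of Ptprc and Cd68 on the other. The part of other cells in the values was not tested. In the 4 channels, 62.1% to 64.4% of the 43020 spots were well above background.

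NR4A proteins are transcription factors with the fold of a nuclear receptor but with a ligand pocket filled by side chains, so that their activity is largely set by how much protein is made. They bind a DNA element named NBRE as monomers, and Nr4a1 and Nr4a2 also pair with retinoid X receptors. All members of the family are known as immediate early genes, whose transcription starts within minutes of growth factors, cAMP or calcium signals without new protein. CREB with its CRTC coactivators, SRF and MEF2 are described regulators of this response.

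The promoter sequences are shown because the members belong to one response family and the bases upstream of their starts can be compared directly. They are taken from RefSeq (GRCm38.p6), 250 bases directly upstream of the annotated start, 5′ to 3′ on the strand of the gene, and capitals mark every CRE half-site, the letters TGACG of the cAMP response element, which read CGTCA when they lie on the other strand.
Nr4a1, chr15:101266596-101266845, plus strand: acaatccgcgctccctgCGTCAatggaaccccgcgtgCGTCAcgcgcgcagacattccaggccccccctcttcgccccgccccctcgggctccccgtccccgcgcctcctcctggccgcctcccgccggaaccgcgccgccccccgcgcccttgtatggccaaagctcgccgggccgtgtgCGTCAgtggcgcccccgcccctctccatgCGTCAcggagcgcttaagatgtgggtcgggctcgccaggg
Nr4a2, chr2:57124004-57124253, minus strand: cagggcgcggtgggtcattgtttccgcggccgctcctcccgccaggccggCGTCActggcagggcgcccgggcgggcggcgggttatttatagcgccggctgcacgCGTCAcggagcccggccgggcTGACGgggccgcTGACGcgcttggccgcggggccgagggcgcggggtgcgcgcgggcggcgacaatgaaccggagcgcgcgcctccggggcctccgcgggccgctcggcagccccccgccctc
Nr4a3, chr4:48045055-48045304, plus strand: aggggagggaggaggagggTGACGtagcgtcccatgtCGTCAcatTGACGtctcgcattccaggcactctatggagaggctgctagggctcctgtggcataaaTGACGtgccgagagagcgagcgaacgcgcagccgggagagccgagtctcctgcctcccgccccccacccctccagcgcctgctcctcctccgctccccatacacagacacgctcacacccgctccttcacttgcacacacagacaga

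Each of the Nr4a promoters held 4 CRE half-sites. Motifs were searched on both strands in windows of 300 bases, which add 50 bases after the start, and no match lay after the start in the Nr4a genes. Of 32851 RefSeq promoter windows of the same length, 20.8% held at least 1 half-site and 0.231% held 4 or more. A full element, TGACGTCA, counts as a pair of overlapping half-sites. It was found in none of the Nr4a windows and in 1.79% of all windows. The GC content upstream of the start was 74.4% for Nr4a1, 80.0% for Nr4a2 and 63.6% for Nr4a3, with 34, 44 and 18 CpG dinucleotides, and each half-site holds a CpG. No match was seen in the Nr4a windows for the NBRE letters AAAGGTCA, found in 1.51% of all windows, or for the CArG box bound by SRF, found in 1.63%. The Nr4a2 window held 1 MEF2 site (3.19% of all windows) and, inside it on the other strand, the letters TATAAA (13.6% of all windows). These matches describe letters in a window and were not tested as binding sites.

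**Figure D1:**
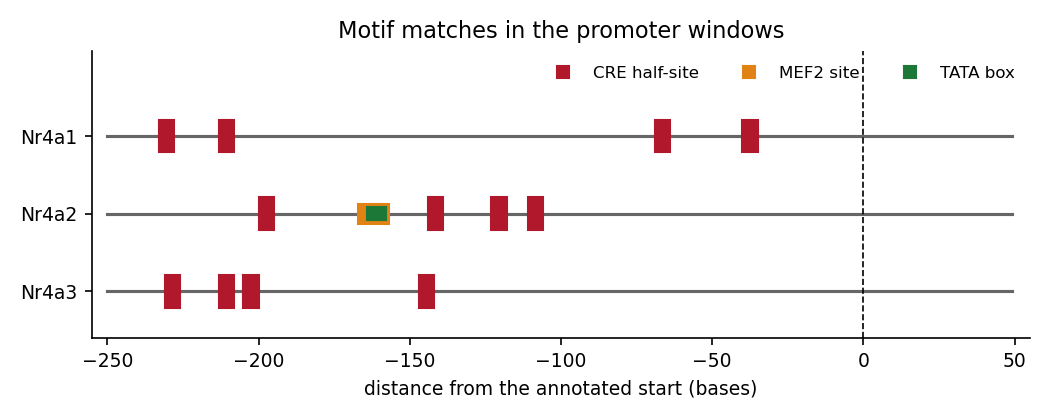
Matches in the promoter windows of Nr4a1, Nr4a2 and Nr4a3, by distance in bases from the annotated start (dashed line). Each gene has 4 CRE half-sites (red), those of Nr4a1 as a pair from -233 and a pair from -69, and those of Nr4a2 and Nr4a3 all between -231 and -107. The MEF2 site (orange) and the TATA letters (green) of Nr4a2 overlap.

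The probe sequences show which stretch of RNA a value comes from. A member's value rests on 60 bases of its transcript, and both printed probes are given 5′ to 3′ on the gene's strand with positions on mm9, the build of the array files. The downstream Nr4a2 probe and the Nr4a1 probe are given by position only.
Nr4a2 upstream probe, chr2:56960699-56960758, minus strand: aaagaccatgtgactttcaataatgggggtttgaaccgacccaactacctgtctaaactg
Nr4a3 probe, chr4:48080690-48083876, plus strand: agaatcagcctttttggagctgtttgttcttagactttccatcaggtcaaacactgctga

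The Nr4a3 probe spans 3187 bases of the genome with 60 bases of sequence, so it crosses an intron and reads spliced RNA. The downstream Nr4a2 probe lies at chr2:56959637-56959696 on the minus strand, 1062 bases from the upstream one. The Nr4a1 probe lies at chr15:101105071-101105130 on the plus strand. The longest run of bases that any pair of the 4 probes shared was 8, on either strand, so the probes of one receptor share no long stretch with those of another. No Nr4a spot was saturated or marked as an outlier.

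Nr4a1, also named Nur77, is the founding member of the family and is induced by serum and nerve growth factor. Its processed signal in control cells was 3671 without serum and 157830 after 1 h of serum. In THOC5-depleted cells it was 4171 without serum and 89724 with serum. Both serum channels thus stood far above both unstimulated channels. The serum ratio was 43.0 in control (log2 5.43) and 21.5 in THOC5-depleted cells (log2 4.43). Without dye normalization these ratios were 88.7 and 40.8. Of the 17199 genes that were well above background in 4 of 4 channels, 3 had a larger serum ratio than Nr4a1 in control cells, where it was 4th, and it was 3rd in THOC5-depleted cells. The serum ratio of Nr4a1 was thus among the largest on both arrays, and it was 2.00-fold smaller in THOC5-depleted than in control cells. The log2 fold reduction was 1.00, with a technical SD of 0.027 taken from probes of like signal printed as 10 spots. That SD covers spots within an array only, and 1 array per condition leaves the spread between cultures unknown. In RNA of whole cultures, fewer responding cells and less RNA per cell cannot be told apart.

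Between arrays, signals were compared after quantile scaling of the mean signal (Aquantile). Without serum, Nr4a1 was higher in THOC5-depleted than in control cells by 0.45 (log2), or 1.36-fold. With serum it was lower in THOC5-depleted cells by 1.46-fold (log2 -0.55). The smaller ratio in depleted cells was thus made of a higher unstimulated level as well as a lower level after serum. Without scaling between arrays the differences were 0.18 and -0.81, of the same direction but with a smaller share in the unstimulated channel.

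Nr4a2, also named Nurr1, is required for midbrain dopamine neurons and is an immediate early gene in other cells. The downstream probe, the brighter one, stands for the gene here. Its processed signal was 320 without serum and 1256 with serum in control cells, and 283 and 751 in THOC5-depleted cells. Both serum channels were again above both unstimulated channels. Its serum ratio was 3.93 in control (log2 1.97) and 2.65 in THOC5-depleted cells (log2 1.41). Nr4a2 was 123rd of 17199 genes by this ratio in control cells and 66th in THOC5-depleted cells, so its place moved up although its ratio was smaller. The fold reduction was 1.48 (log2 0.57, technical SD 0.044). After scaling, the level in THOC5-depleted cells differed from that in control cells by 0.10 (log2) without serum, and with serum it was 1.38-fold lower (log2 -0.46). The unstimulated difference changed sign, to -0.18, when the arrays were not scaled.

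The upstream Nr4a2 probe, printed above, gave signals of 317 (unstimulated) and 825 (serum) in control cells, against 307 and 526 after THOC5 depletion. Its serum ratio was 2.60 in control (log2 1.38) and 1.72 in THOC5-depleted cells (log2 0.78), with a fold reduction of 1.52 (log2 0.60, technical SD 0.051). On this probe, too, both serum channels were above both unstimulated channels. The downstream probe had the larger log2 serum ratio, by 0.60 in control cells and by 0.63 in THOC5-depleted cells, while the log2 fold reductions of both probes differed by 0.03 in size. For comparison, 65 genes had at least a pair of probes well above background and a serum ratio of 2 or more in control cells. Their median difference between both probes was 0.24 (log2) on the control array and 0.20 on the other. Of the 65 genes, 45 and 56 had a smaller difference than Nr4a2. For the log2 fold reduction the median difference was 0.23, and 8 of the 65 genes had a smaller one. The Nr4a2 probes thus differed in the size of the serum ratio and gave nearly the same reduction. What sets the probes apart was not tested.

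Nr4a3, also named NOR1, has been linked to vascular and blood cells. It was well above background in none of its 10 spots in any of the 4 channels. Its processed signals ran from 2.38 to 2.93 (median 2.60) without serum and from 2.95 to 4.49 (median 3.17) with serum in control cells. In THOC5-depleted cells they ran from 2.40 to 3.01 (median 2.59) without serum and from 2.66 to 3.24 (median 2.83) with serum. The dimmest signals that the software called detected were 11.2, 14.0, 11.2 and 12.0 in these channels, so every spot lay below them, and no serum ratio is given. The mean brightness of the spots before background subtraction can be set against 153 negative-control spots of the same array. In each of the 4 channels, 10 of 10 Nr4a3 spots lay between the 5th and the 95th percentile of those spots. In the serum channel of control cells, for example, the Nr4a3 spots ran from 85.0 to 98.2, and the percentiles were 75.8 and 104. At this sensitivity Nr4a3 RNA was not detectable with this probe, which does not show that it is absent.

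**Figure D2:**
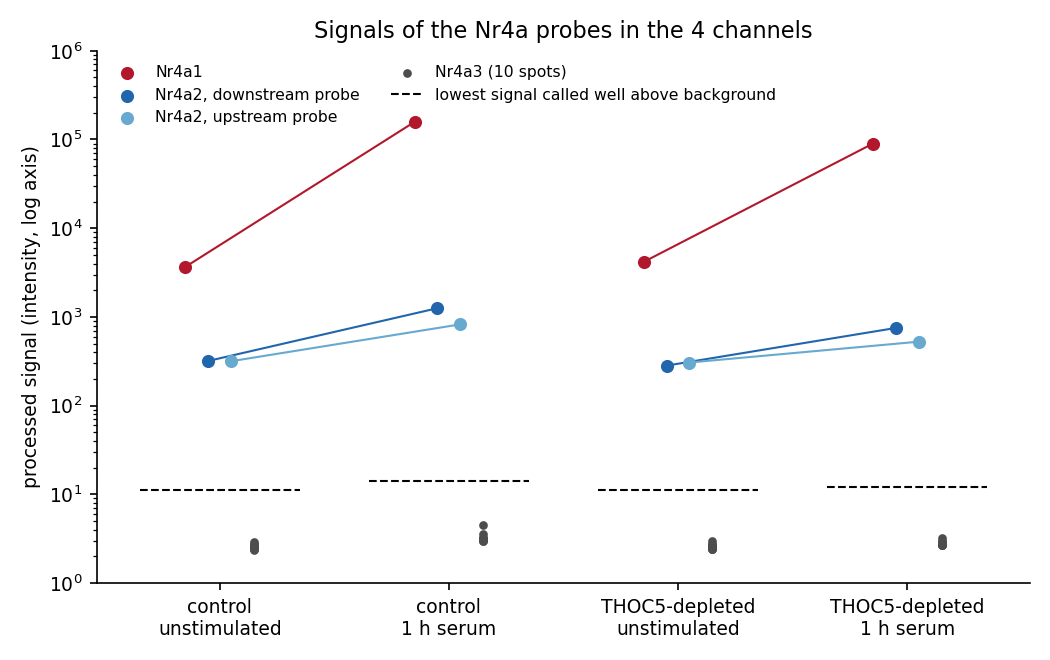
Processed signal (intensity, log axis) of each Nr4a spot in the 4 channels, with lines joining the unstimulated and the serum channel of one array. Nr4a1 runs from 3671 to 157830 in control cells and from 4171 to 89724 in THOC5-depleted cells, both Nr4a2 probes lie between 283 and 1256, and all 10 Nr4a3 spots lie under the dashed lines, the detection limit of each channel.

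Of the 3 members, 2 could be given a serum ratio, and both had a ratio of 2 or more in control cells, against 2.4% of all 17199 genes. Both also had such a ratio in THOC5-depleted cells, against 0.762%, though for Nr4a2 this holds on the downstream probe and not on the upstream one, at 1.72. The upstream probe had nearly the same unstimulated signals and lower serum signals, so the choice of the brighter probe favours the larger ratio. A ratio of 4 or more was seen for Nr4a1 alone, on both arrays, against 0.68% of genes on the control array and 0.174% on the other. The methods of the study keep genes above a ratio of 4 and a serum signal of 200, which Nr4a1 passed and Nr4a2, at 3.93, missed by its ratio. Without dye normalization Nr4a2 also passed a ratio of 4 on both arrays, at 6.54 and 4.29.

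The fold reductions of the members lay among those of other serum-induced genes. Among the 413 genes with a serum ratio of 2 or more in control cells, 86.7% had a fold reduction of 1.3 or more, as both members did, and the median was 1.88. These genes were chosen on the control ratio, which is the numerator of the reduction, so the choice is not independent of the reduction. A reduction of 2 or more was seen in 40.9% of the 413 genes. Nr4a1 lay at this limit, at 1.999 with the processed signals and at 2.01 after normexp correction and loess, and Nr4a2 lay below it. A larger reduction than that of Nr4a1 was seen in 41.2% of the 413 genes, and a larger one than that of Nr4a2 in 78.2%. Among the 117 genes with a ratio of 4 or more, the corresponding shares were 72.6% and 86.3%. Nr4a2, with a control ratio of 3.93, is not one of these 117 genes, whose median reduction was 2.64. With induced genes chosen instead on the mean log2 ratio of both arrays, an alternative added after seeing the data, 245 genes passed a ratio of 2. Of these, 78.0% had a reduction of 1.3 or more and 44.9% one of 2 or more, with a median of 1.90, so that the first share was lower than among the 413 genes and the other values were slightly higher. Of the 245 genes, 45.3% had a larger reduction than Nr4a1 and 69.4% a larger one than Nr4a2. Among the 56 genes that passed a ratio of 4 in this way, the shares with a larger reduction than Nr4a1 and Nr4a2 were 60.7% and 76.8%. Nr4a2 is not one of these 56 genes either.

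The sign of the reduction, and the place of the members among induced genes, also rest on leaving the spread of each array as it is. The median absolute deviation of the log2 ratios over all genes was 0.194 on the control array and 0.136 on the array of THOC5-depleted cells. When the ratios of both arrays were stretched to one deviation, the log2 fold reduction turned to -0.74 for Nr4a1 and to -0.03 for Nr4a2. That setting multiplies every log2 ratio of an array by one factor, so it acts most on ratios far from 1 and is not particular to the Nr4a genes. Egr2 went from 0.87 to -0.92 and Fosb from 0.05 to -1.48 in the same way, while Junb kept a positive value, 0.35. Over the 413 genes the median log2 reduction was then 0.50, and 16.2% of them were below 0. In counts likewise added after seeing the data, 97.1% of the 413 genes then had a larger reduction than Nr4a1 and 85.2% than Nr4a2. Of the 117 genes, which do not include Nr4a2, the shares were 91.5% and 81.2%. The 10 spike-in probes, which read RNAs added to both dyes, had a slope of 1.02 between the arrays and lay higher by 0.24 (log2) on the array of THOC5-depleted cells. With this offset subtracted, the log2 reductions were 1.24 and 0.81.

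**Figure D3:**
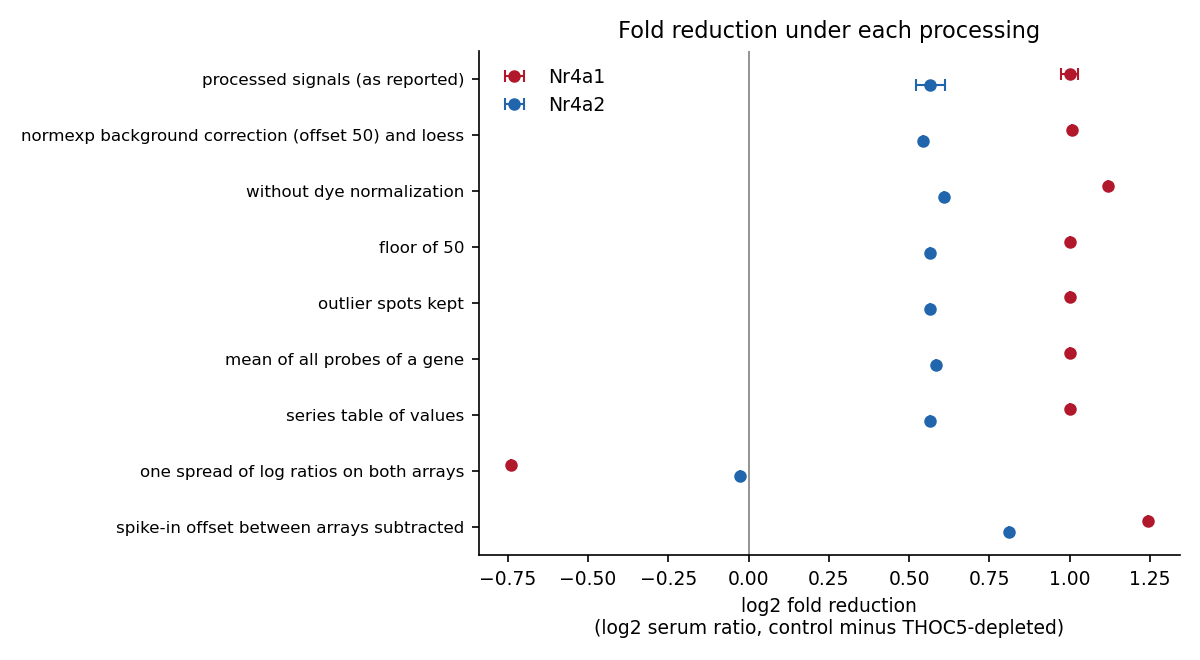
Log2 fold reduction of Nr4a1 (red) and Nr4a2 (blue) with each processing, where values above 0 are smaller serum ratios in THOC5-depleted cells. Bars on the reported values are the technical SD within arrays (0.027 and 0.044). The values lie between 0.54 and 1.24 except with one spread of log ratios, where they are -0.74 and -0.03.

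The other nuclear receptors give the family its setting. Of 46 nuclear receptor genes outside the family, 32 were well above background in 4 of 4 channels and 12 in none. Their median log2 serum ratio was 0.01 in control and -0.06 in THOC5-depleted cells, beside -0.02 and -0.01 over all genes tested. One of the 32 passed a ratio of 2 in control cells and none in THOC5-depleted cells, near the 2.4% and 0.762% of all genes. This was Nr1d1, the heme-binding clock repressor Rev-erb alpha, with signals of 88.1 (unstimulated) and 231 (serum) in control cells, against 159 and 171 after THOC5 depletion. Its serum ratio was 2.62 in control and 1.07 in THOC5-depleted cells, a fold reduction of 2.44. Nr1d1 thus had a larger reduction than either detected Nr4a gene. Its control ratio was below those of Nr4a1 and of the downstream Nr4a2 probe, and next to the 2.60 of the upstream Nr4a2 probe. None of the 32 had a ratio of 0.5 or less, beside 1.55% of all genes on the control array and 0.215% on the other.

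**Figure D4:**
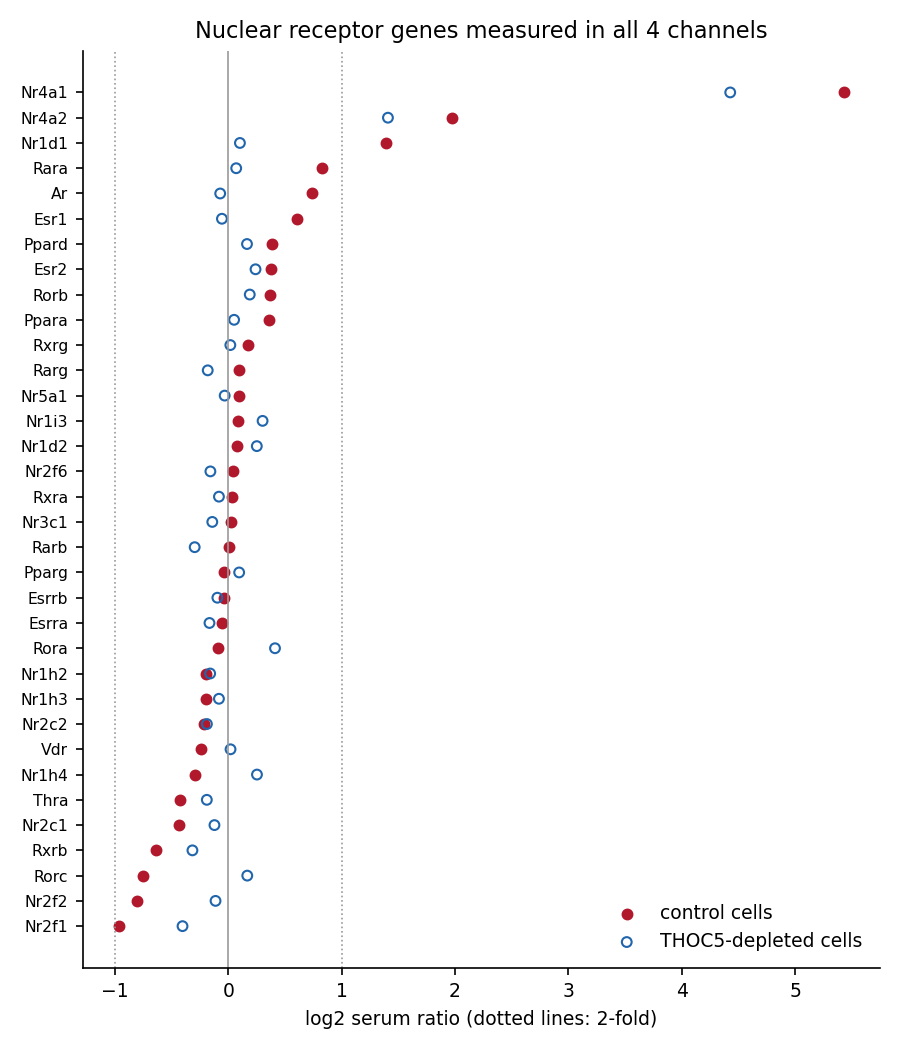
Log2 serum ratio of the 34 nuclear receptor genes well above background in 4 of 4 channels, in control cells (filled red) and THOC5-depleted cells (open blue), in the order of the control value. Nr4a1 (5.43 and 4.43) and Nr4a2 (1.97 and 1.41) lie at the top, and Nr1d1 is the only other receptor beyond a dotted line, which marks a 2-fold ratio, in control cells.

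The regulators that act on Nr4a promoters were mostly flat after 1 h of serum. Of 27 upstream regulators, 26 were measured in 4 of 4 channels, and their median log2 serum ratio was 0.02 for control and 0.03 for THOC5-depleted cells. Srf, which binds CArG boxes, had serum ratios of 2.49 and 1.89. Sik2, a kinase that keeps CRTC coactivators out of the nucleus, had ratios of 2.07 and 1.24. These were 2 of 26 genes with a ratio of 2 or more in control cells, and 0 of 26 had one in THOC5-depleted cells, beside 2.4% and 0.762% of all genes. Among 15 partners and coregulators of the receptors, such as the retinoid X receptors and the nuclear receptor coactivators, 0 passed a ratio of 2 or of 0.5 on either array, where the shares of all genes were 2.4% and 0.762% upward and 1.55% and 0.215% downward.

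Of 17 genes described as Nr4a targets, 16 were on the array under their symbol and 12 were measured in 4 of 4 channels. Their median log2 serum ratio was 0.07 in control and 0.06 in THOC5-depleted cells. Ret, a receptor tyrosine kinase of neurons, had signals of 67.7 (unstimulated) and 359 (serum) in control cells, against 102 and 116 after THOC5 depletion. Its serum ratio was 5.31 in control and 1.13 in THOC5-depleted cells, a fold reduction of 4.69. Star, which carries cholesterol into mitochondria, had ratios of 2.83 and 1.19, from signals of 18.4 to 51.9, close to the limit of detection. Ret and Star were thus 2 of 12 in control cells and 0 of 12 passed in THOC5-depleted cells, beside the same 2.4% and 0.762%. Whether these genes answered to the receptors was not tested.

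Genes described as targets of CREB and CRTC gave a mixed picture. Of 12 such genes outside the family, 10 were measured in 4 of 4 channels, and a serum ratio of 2 was passed by 4 of these in control cells and by 3 in THOC5-depleted cells (all genes, 2.4% and 0.762%). Ptgs2, which makes prostaglandins, had ratios of 13.8 and 5.20, and Areg, a ligand of the EGF receptor, had ratios of 8.55 and 3.03. Per1, a clock gene, had ratios of 2.16 and 1.74. Dusp1, a phosphatase of MAP kinases, went the other way, with ratios of 3.21 and 5.76.

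Other families of immediate early transcription factors give the scale for the Nr4a values. In the Fos, Jun and Atf3 family, a serum ratio of 2 or more was seen for 7 of 8 genes in control cells and for 5 of 8 in THOC5-depleted cells, again beside 2.4% and 0.762% of all genes. Fos had a larger ratio in THOC5-depleted cells (93.4) than in control cells (52.2), Fosb had ratios of 19.8 and 19.1, and Jun had 2.91 and 2.93. In the same family the ratio was larger on the control array for Junb (12.1 against 4.70), Fosl1 (3.71 against 1.67), Fosl2 (2.59 against 1.56) and Atf3 (5.86 against 4.16). Among the Egr genes, the ratio of Egr1 was 15.4 in control and 15.7 in THOC5-depleted cells, while Egr2 had 45.0 and 24.6, a fold reduction of 1.83. Egr3 and Egr4 were above background in only some of the channels. Of the 6 Kruppel-like factors listed, 3 had a 2-fold or larger response on the control array and 4 on the other. Over all genes these shares were 2.4% and 0.762%. The list was drawn up with earlier results of these data known, so its counts may not describe the family as a whole. Klf2 had ratios of 1.22 and 3.62, Klf4 of 3.14 and 3.39, and Klf6 of 1.95 and 2.22. Klf9 had 4.05 and 1.46, and Klf10 had 8.60 and 3.98. Nr4a1 thus sat with Egr2 among genes of very large serum ratio on both arrays, and the families held genes with both smaller and larger reductions than the Nr4a genes.

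**Figure D5:**
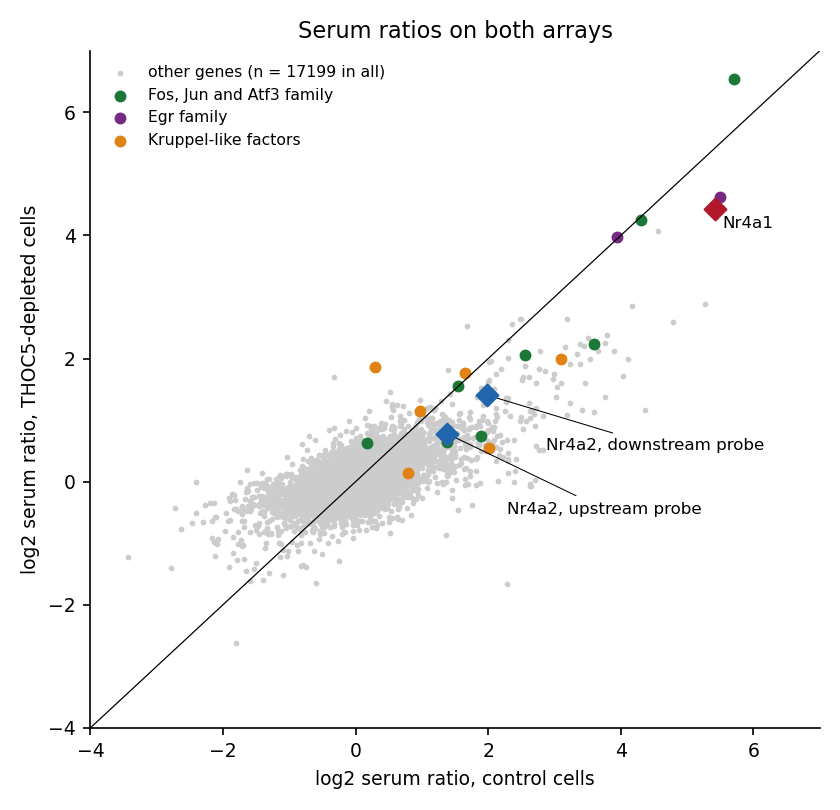
Log2 serum ratio in control cells (x axis) against THOC5-depleted cells (y axis) for 17199 genes (grey), with Nr4a1 (red diamond), both Nr4a2 probes (blue diamonds) and 3 families of immediate early genes. Points below the line have a smaller ratio in THOC5-depleted cells, as the Nr4a probes do. Nr4a1 (5.43 and 4.43) lies beside Egr2.

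The pattern most like that of a member was measured as the Euclidean distance over the 4 scaled log2 channel values, each gene centred on its own mean, among 17199 genes. It describes 4 channels of a pair of arrays. The 5 genes nearest to Nr4a1 were Egr2 at a distance of 0.20, Fosb at 0.83, Egr1 at 1.10, Id1 at 1.37 and LOC402769 at 1.55. Egr2 was thus much the nearest. Id1, an inhibitor of bHLH factors, had serum ratios of 27.7 and 6.03. The 5 genes nearest to Nr4a2 were Ccno at 0.082, Cxcl1 at 0.086, Dnajb1 at 0.13, and 1700064E03Rik and Plk3, both at 0.27. Cxcl1, a neutrophil chemokine, had serum ratios of 4.03 and 2.48, and Dnajb1, a heat shock cochaperone, had 4.27 and 2.85.

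The genes beside the detected members on the chromosome are given for context. Of the 8 genes nearest to Nr4a1 and Nr4a2 in the RefSeq order, a pair on each side of each, 6 were measured in 4 of 4 channels. None of the 6 reached a serum ratio of 2 on either array, and with 2.4% and 0.762% of all genes past that ratio this count says nothing particular about the neighbours. Their ratios were 0.862 and 1.20 for Acvr1b, 1.54 and 1.02 for Grasp, 1.08 and 0.978 for Atg101, and 1.84 and 1.32 for Smim41, all near Nr4a1, and 1.08 and 1.52 for Galnt13 and 0.973 and 0.684 for Kcnj3, both near Nr4a2. The ratio was smaller in depleted cells for some of the 6 and larger for others. Atg101 and Smim41 are listed on the array as 9430023L20Rik and 6030408B16Rik.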

How the data were processed

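The authors deposited the scanner output of both arrays, made with Agilent Feature Extraction 10.7.3.1 according to the submitters' processing notes, and positions of probes refer to mm9. The deposited processed signals, per the file headers, are intensities from which background was subtracted, with linear and LOWESS dye normalization within each array, not scaled between arrays. The deposited 0 or 1 calls of the software gave detection, saturation and outliers. A log10 of Cy5 over Cy3 is also in the deposited scanner files. The authors' series table also holds log10 ratios, with column medians of 0.0290 for control and 0.0230 for THOC5-depleted cells. It has 0 negative values where the scanner has 18386 and 18317, so its values are sizes only, and it served as an alternative once given the scanner's sign. The number of columns mapped to no sample is 0.

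Outlier spots were left out, log2 values were averaged over the spots of a probe, and the brightest probe over the 4 channels stands for a gene. Genes with a symbol and all channels well above background were counted. The technical SD is the median spot SD of 50 probes printed as 10 spots, combined over both arrays. On each array these were the nearest in mean log2 signal over both channels. Of 399 probes printed as 10 spots, 269 were well above background on the control array and 271 on the other. Levels between arrays used limma 3.58.1 (Aquantile). The named genes are the members' probes, members of each list with a serum ratio of 2 or more or 0.5 or less on either array, the 5 genes nearest to each member in pattern, Thoc5 and Gapdh. Chromosomal neighbours and examples below these limits fall outside that rule. The members and lists were chosen with earlier results of these data known. Alternatives were normexp correction with an offset of 50 and loess, no dye normalization, the series table, a floor of 50, outlier spots kept, the mean of all probes, one spread of log ratios, the spike-in offset, other scaling between arrays, induced genes chosen on both arrays (added after seeing the data) and no filter on dim genes. The steps were tested on simulated data. Promoters came from RefSeq tables (GRCm38.p6), in which 3 of 3 members were found. Values were computed in Python 3.11.15 (pandas 2.3.3, numpy 2.4.6) and R 4.3.3, and plots were drawn with matplotlib 3.10.9.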

Additional observations from a re-analysis of the deposited data

How the results depend on the processing

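Across the alternatives, 39 values stayed within their technical spread (or, for gene counts, within 1.5 times, and for shares of genes, within a 95% Wilson interval), 26 moved by more and 3 changed sign. The sign changed for the log2 fold reductions with one spread of log ratios (-0.74 for Nr4a1, -0.028 for Nr4a2) and for the unstimulated level of Nr4a2 without scaling between arrays (-0.18). Without dye normalization the log2 serum ratios were 6.47 and 5.35 for Nr4a1 (control and THOC5-depleted cells) and 2.71 and 2.10 for Nr4a2, which then passed a ratio of 4 on both arrays, and the log2 reduction of Nr4a1 was 1.12. With the spike-in offset the reductions were 1.24 and 0.81. Normexp and loess gave 1.82 and 1.27 for the log2 serum ratios of Nr4a2, and the mean of both probes gave 1.68 and 1.09, with an unstimulated difference of 0.16. The unstimulated difference of Nr4a1 was 0.49 with 75th percentile scaling and 0.18 without scaling, and the serum differences without scaling were -0.81 for Nr4a1 and -0.74 for Nr4a2. With all 28233 genes with a symbol, the counts past a serum ratio of 2 and of 4 were 871 and 185 in control cells (413 and 117 among genes above background) and 536 and 57 in THOC5-depleted cells (131 and 30). The cause was not tested in these cases. No paired analysis was possible because each condition was 1 array. Signal over background limits Nr4a3 most, and values between conditions have no error beyond the technical spread within arrays, since no array was repeated.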
